A study of Mus musculus with 15 samples.

Results

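The regions described here are stretches of chromatin that lipopolysaccharide (LPS) brought into the strongest DNase-hypersensitive sites of control macrophages by 8 h, and that were among the strongest sites of Ikzf KO macrophages before any LPS was given. Macrophages grown from the bone marrow of C57BL/6J mice received 10 ng/ml LPS for 0, 3 or 8 h and were then profiled by DNase-seq. At each time there were 2 wild-type (WT) libraries, 1 library labelled Littermate control and 2 libraries labelled Ikzf KO, 15 libraries in 9 groups. WT and littermate libraries are called controls below. The WT replicate 2 libraries are labelled with 100 U of DNase and all others with 80 U. The labels do not give the KO allele or the age of the mice, and do not say if replicates are separate animals or cultures. The littermate library is single at each time.

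Members were chosen from measured values. The authors deposited a list of hotspots for each library, a hotspot being a stretch with many DNase cuts, with its highest tag density as the measure of its strength. Each of the 10 lists at 0 h and 8 h was shortened to its 17237 hotspots of highest density, the length of the shortest list, and overlapping hotspots on chromosomes 1 to 19 (1 bp or more in common) were joined into 28297 merged regions. Of these, 1406 (4.97%) belonged to every one of the 3 control 8 h lists and to no control 0 h list, and are called control-gained. A further condition, presence in both KO lists at 0 h, left 243 regions (0.859% of the 28297, and 17.3% of the control-gained). Their presence in these lists is the choice itself and is given without a test. Their course in the 3 h lists and in the KO 8 h lists was not part of the choice. No test was run on these either, since the lists hold no read counts and the regions were chosen with results of these data known, so counts are set beside the same counts over other regions.

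Macrophages sense LPS, which coats Gram-negative bacteria, through Toll-like receptor 4. The signal activates NF-kB, AP-1 and interferon regulatory factors, which act with the lineage factor PU.1 at enhancers, some of them open before stimulation and others opened by it. Ikaros, encoded by Ikzf1, is a zinc finger DNA-binding protein best known from lymphoid development that works with chromatin remodelling and histone deacetylase complexes. The study asked, by its title, what part Ikaros plays in the chromatin state of macrophages. A region open in resting KO cells and opened by LPS in controls bears on whether the KO chromatin resembles stimulated chromatin before the stimulus. Gene positions in the build of the lists (mm9) were not used here, so regions are named by position and not by gene, and neither macrophage markers nor the targeted gene were checked.

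The libraries differed in strength along the lines of the comparison. The deposited lists held 17237 to 51834 hotspots in WT at 0 h and 8 h, 64262 and 114427 in the littermate and 111553 to 132279 in KO. Their lowest Z-score was 7.98 to 9.29 in these WT lists and 3.40 to 4.38 in the littermate and KO lists of those times, so the lists as deposited do not end at one level. At the cut, the highest tag density of a hotspot was 0.796 to 6.26 in the 3 control 0 h lists, against 14.1 and 14.3 in the KO 0 h lists, 14.4 to 15.0 in the control 8 h lists and 18.1 and 18.5 in the KO 8 h lists. The shortened lists covered 10.4 to 15.6 Mb in controls at 0 h, 21.4 to 29.7 Mb in controls at 8 h and 30.3 to 33.9 Mb in KO at all times, so a KO list had more bases with which to meet a region. Densities are multiples of a step that can be read as relative depth if the authors scaled each library to one total, which the sources do not state. On that reading the control 0 h libraries had 0.596 to 0.644 times the depth of the deepest library and the KO 0 h libraries 0.741 and 0.745 times. The part of library strength and depth in the choice of the 243 regions was not tested. When the lists were made equal in covered bases (10.4 Mb) in place of hotspot number, an alternative added after the data were seen that leaves 4326 to 16572 hotspots in the 10 lists of the rule, 1 region met the rule.

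**Figure D1:**
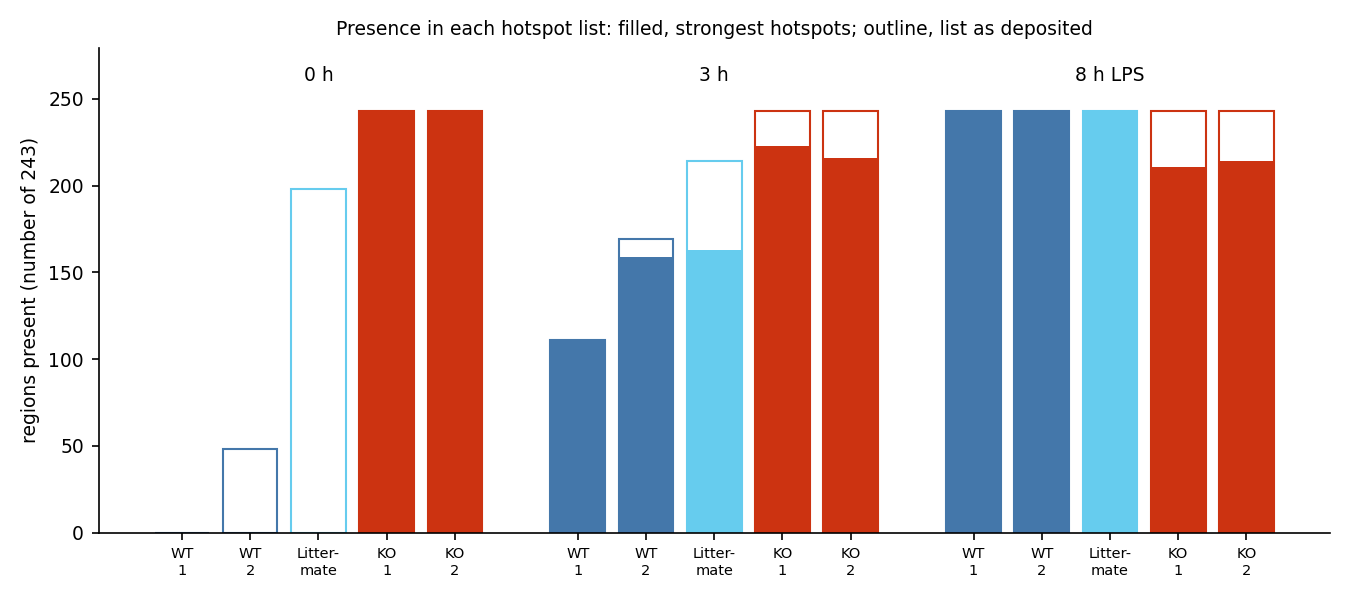
Number of the 243 regions (vertical axis) present in each of the 15 hotspot lists, by hours of LPS, with filled bars for the strongest hotspots and outlines for the lists as deposited. The 0 h and 8 h control bars and the 0 h KO bars follow from the rule; at 3 h the filled bars stand at 111 to 163 in controls and at 223 and 216 in KO.

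The regions were compact, and in nearly all of them the KO 0 h and control 8 h hotspots lay on the same bases. Their median length was 1658 bp (quartiles 1257 and 2216 bp, range 580 to 5222 bp), against 1552 bp for the other control-gained regions, 1550 bp for all 28297 regions and 2280 bp for those in all 10 lists. In 225 regions (92.6%) each of the 5 lists that chose the region held exactly 1 hotspot. KO 0 h hotspots covered a median of 96.7% of the control 8 h hotspot bases, averaged over the 6 pairs of libraries, and at least 50% in 237 regions. The centres of the strongest hotspots were 58.5 to 81.5 bp apart in the median of each such pair, against 34.5 to 64 bp between control 8 h libraries and 47.5 bp between the KO 0 h libraries. In 1 region, chr10:93406540-93409526, KO and control hotspots shared no base and were joined through another list. It was picked out after its values were seen.

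In the resting littermate most of the regions were listed at lower ranks. In the lists as deposited, the littermate 0 h list held 198 of the 243 regions (81.5%), the WT replicate 2 list 48, and the shorter WT replicate 1 list, which the cut leaves whole, held 0. Over all 28297 regions these lists held 85.0%, 62.3% and 53.8%, and over the other control-gained regions 61.0%, 9.80% and 0%. In none of the 3 lists were 41 of the regions (16.9%), against 12.3% of all regions and 38.4% of the other control-gained regions. Where the littermate 0 h list held a region, its median rank was 26076, and the median highest density was 4.52, or 0.545 times the median of the shortened list. The other control-gained regions it held had a median rank of 27891 and the same median density. Within the strongest 34474 hotspots of that list, double the cut, lay 156 of the 243 regions (64.2%) and 43.9% of the other control-gained regions. The littermate 0 h list had 2262 hotspots at exactly the density of the cut, and 30 of the 243 regions were there, left out by the tie rule. With WT replicate 2 counted too, 36 regions had the density of the cut in a control 0 h list. The 243 regions were thus listed in the resting littermate more often than the other control-gained regions. Where listed, their density quartiles were 4.14 and 5.27, against 3.77 and 4.90 in the others, with the same median. Densities in this list move in steps of 0.377, so medians can tie. The shares over all 28297 regions are not on a like base, as the rule bars the 243 from the shortened control 0 h lists. Of all regions, 15651 were in the shortened littermate 0 h list and 24050 in the deposited one. In no shortened control 0 h list were 7475 regions, of which 3493 were in no deposited one either.

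Resting control libraries also held some of the regions that LPS brought into other controls, but fewer than KO did. To see this, control-gained regions were defined in 2 of the 3 control series and looked up in the 0 h list of the series left out. Of 2116 regions gained in WT replicate 2 and the littermate, the WT replicate 1 list at 0 h held 14.3% (Wilson 95% interval 12.9 to 15.9), and the KO replicates 1 and 2 held 25.7% and 24.6%. Of 2098 regions gained in WT replicate 1 and the littermate, the WT replicate 2 list held 18.2% (16.6 to 19.9) and the KO lists 27.8% and 27.1%. The gap was smallest for the littermate, whose 0 h list held 23.1% (21.3 to 24.9) of 2107 regions gained in both WT series, against 30.0% (28.1 to 32.0) and 29.2% (27.3 to 31.2) in KO. In all 6 pairings the KO list held more. The intervals cover counting alone, and the KO lists covered more bases, as given above. The regions also had to be absent from the 0 h lists of 2 control series, and no such limit was set on the KO lists. The higher KO shares were not separated from this choice, and the difference was not tested.

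Seen from KO, control-gained regions were a minority of what was open early. Of the regions absent from all 3 control lists at 0 h, 1573 were in both KO 0 h lists. Among these, 243 (15.4%) reached all 3 control lists at 8 h, 186 reached 1, 136 reached 2, and 1008 (64.1%) reached none. Among the 4468 regions absent from control and KO lists at 0 h, 23.2% reached all 3 control lists at 8 h. The merging starts from the lists themselves, so a region in no 0 h list is there because an 8 h list holds it, and the shares are a description of the rule.

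At 3 h, part of the regions had already entered the control lists. The shortened lists held 111 regions in WT replicate 1 (45.7%), 159 in WT replicate 2 (65.4%) and 163 in the littermate (67.1%). The WT replicate 1 list was used whole, as it had only 15659 hotspots. All 3 lists held 82 regions (33.7%, Wilson 95% interval 28.1 to 39.9), and none held 38 (15.6%). In the lists as deposited, all 3 held 94 of the same 243 regions (38.7%). Rules with another definition of presence chose largely other regions, of which all 3 lists held 3.20% (lists as deposited), 1.78% (50% of a region covered) and 9.22% (single hotspots). In the same 3 lists were 36.7% of all 28297 regions and 30.1% of the other control-gained regions, so the share of the 243 in all 3 lists was close to these. Of the 1330 regions in both KO 0 h lists and no control 0 h list that were not control-gained, 2.41% were in all 3 control 3 h lists and 72.1% in none. Among all 15067 regions in both KO 0 h lists, 59.6% were in all 3 control 3 h lists (60.0% without the 243) and 15.5% in none, and 27.4% of the other control-gained regions were in none. Where a deposited 3 h list held a region, the median density was 0.829, 0.889 and 0.842 times the list's median in WT replicate 1, WT replicate 2 and the littermate. At 8 h these values were 0.785, 0.859 and 0.867, and the 3 h values leave out the regions that a list did not hold.

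In KO most of the regions stayed in the lists through LPS. At 3 h, 223 were in the KO replicate 1 list and 216 in the replicate 2 list, 207 in both (85.2%, Wilson 95% interval 80.2 to 89.1) and 11 in neither. At 8 h the lists held 211 and 214, with 203 in both (83.5%, 78.4 to 87.7) and 21 in neither (8.64%). The KO lists at 3 h and 8 h, 4 in all, shared 192 of the regions. Over all 28297 regions, the 3 h lists of both KO libraries held 52.6% and the 8 h lists 54.4%, while 37.4% and 35.9% were in neither. Among all 15067 regions in both KO 0 h lists the shares were 81.3% and 81.2%, with 10.9% (11.0% without the 243) and 12.2% in neither. The persistence of the 243 was thus close to that of KO-open regions in general, but the start was not alike. The median KO rank at 0 h was 12248 in the 243 and 7736, further inside the cut, in the other regions of both KO 0 h lists. Persistence was higher in the 243 than among the 1330 regions open early in KO that controls did not gain. Of these, 50.0% were in both lists at 3 h and 48.3% at 8 h, with 32.3% and 38.2% in neither. Of the other control-gained regions, both KO libraries held 44.8% at 3 h and 49.4% at 8 h, with 42.4% and 40.4% in neither. Those regions were by definition not in both KO 0 h lists. As deposited, all 6 of the long KO lists held all 243 regions.

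Within KO the regions also moved up the lists after LPS. Ranks were by highest density, with 1 for the strongest hotspot, in the whole deposited list. The median of the mean rank over the 2 KO libraries was 12248 at 0 h, 8739 at 3 h and 8503 at 8 h. The 1330 regions open early in KO that controls did not gain started close by, at 13055, and stood at 15809 and 16315. All regions in both KO 0 h lists other than the 243 started stronger, at 7736, and stood at 8318 and 8376. For 127 of the 243 regions (52.3%) both KO 3 h ranks were stronger than both KO 0 h ranks, and for 41 (16.9%) both were weaker. At 8 h the counts were 137 (56.4%) and 57 (23.5%). Over the 15054 (3 h) and 15058 (8 h) regions of both KO 0 h lists with a rank in all 4 KO lists compared, 20.4% were stronger and 42.4% weaker at 3 h, and for 8 h the shares were 23.3% and 49.1%. Among 1326 and 1327 of the 1330 regions, those with all ranks, 18.5% were stronger and 53.9% weaker at 3 h, and at 8 h the shares were 20.0% and 58.9%. The choice required the 0 h ranks to lie within the cut and set no limit on the 3 h and 8 h ranks in KO. It did require high density in controls at 8 h, which the 1330 regions did not meet.

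**Figure D2:**
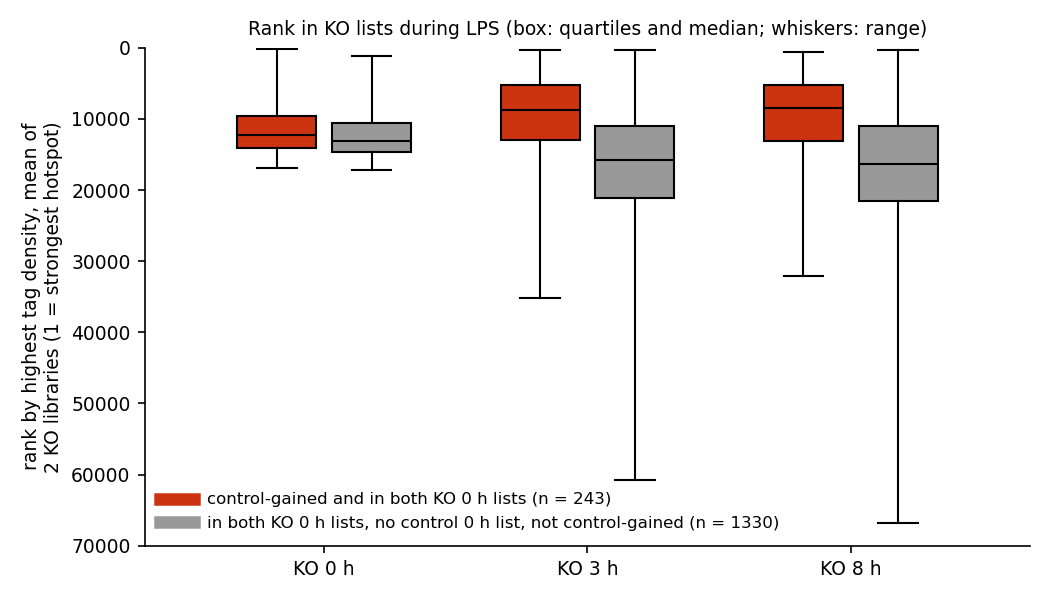
Rank by highest tag density in KO (vertical axis, inverted so that stronger is up) at 0, 3 and 8 h of LPS, for the 243 regions and for the 1330 regions open early in KO that controls did not gain. Boxes give the median and quartiles and whiskers the range; medians go from 12248 to 8503 in the first set and from 13055 to 16315 in the second.

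The densities from which these ranks were made are given next, relative to each list, and are not a separate measure. In KO replicate 1 the median highest density of the regions was 19.4 at 0 h, 24.1 at 3 h and 30.4 at 8 h, which was 0.824, 1 and 1.04 times the median of the shortened list. KO replicate 2 had 18.9, 23.3 and 29.7, or 0.808, 0.988 and 1 times the list median. The regions thus began below the middle of the strongest KO hotspots and stood at the middle after LPS, in both replicates. The KO replicates ordered the regions alike. Across the 243 regions, which share libraries and are a description only, the Spearman correlation of their ranks was 0.62 at 0 h, 0.90 at 3 h and 0.94 at 8 h. The rule confines the 0 h ranks, and not the later KO ranks, to the cut. Mean KO ranks at 8 h followed mean control ranks at 8 h with a Spearman correlation of 0.50, and KO ranks at 0 h did so with 0.16.

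Regions that strengthened in KO were in all 3 control 3 h lists more often than those that weakened. The share in all 3 lists was 33.7% over the 243, 36.7% over all 28297 regions and 59.6% over all regions in both KO 0 h lists. The split by KO rank was made for the 243 alone, so whether it is particular to them was not tested. Of the 137 regions stronger in KO at 8 h than at 0 h, 59 (43.1%) were in all 3 control 3 h lists and 17 (12.4%) in none. Of the 57 weaker ones, 9 (15.8%) were in all 3 and 14 (24.6%) in none. Between them, 49 regions had overlapping KO ranks at 0 h and 8 h, and 14 of these were in all 3 control 3 h lists. The 3 classes started at similar KO ranks, with medians of 12401, 11727 and 11662 for stronger, overlapping and weaker, and ended at 5708, 11053 and 16458. Their median control 8 h ranks were 10218, 11736 and 13307, and their median lengths 1760, 1455 and 1397 bp. Of the 137, 110 were already stronger at 3 h than at 0 h. The median KO rank of the 137 was 12401 at 0 h, 6353 at 3 h and 5708 at 8 h. By these medians most of the shift lay within the first 3 h. Of the 57, 33 were already weaker at 3 h.

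**Figure D3:**
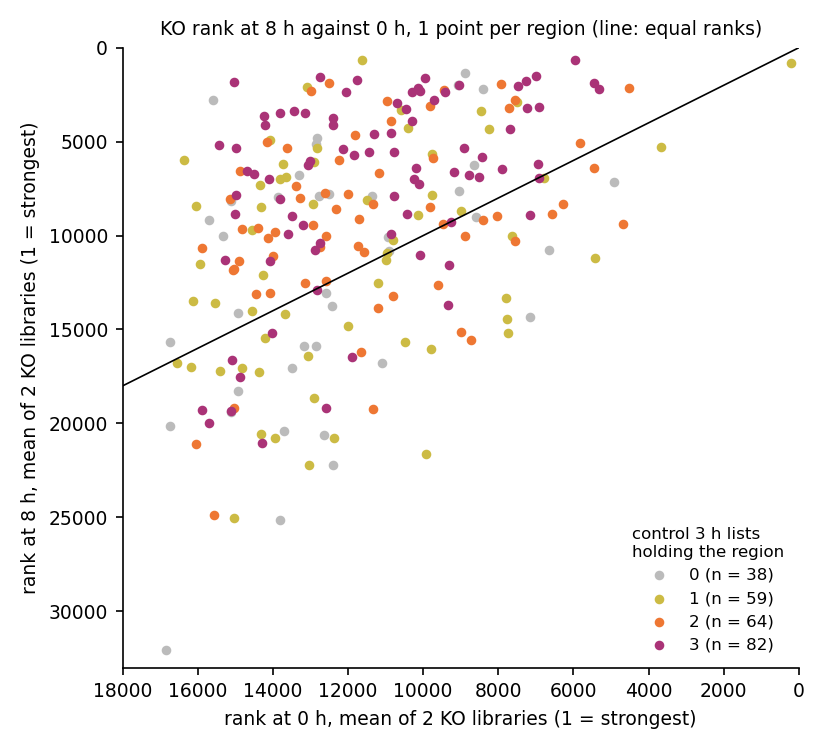
Mean rank of each of the 243 regions in the 2 KO libraries at 8 h (vertical axis) against 0 h (horizontal axis), both inverted so that stronger is up and right, coloured by the number of control 3 h lists that held the region. Points above the line ranked stronger at 8 h; of the 82 regions in all 3 control 3 h lists, 59 had both 8 h ranks stronger than both 0 h ranks.

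Presence in KO at 8 h followed presence in controls at 3 h. Both KO 8 h lists held 25 of the 38 regions that were in no control 3 h list (65.8%, Wilson 95% interval 49.9 to 78.8). They held 45 of the 59 in 1 list (76.3%, 64.0 to 85.3), 59 of the 64 in 2 lists (92.2%, 83.0 to 96.6) and 74 of the 82 in all 3 (90.2%, 81.9 to 95). The other control-gained regions, by definition not in both KO 0 h lists, had lower shares in each class, at 31.3%, 47.8%, 60.7% and 59.4%. In both sets the shares of 2 and of 3 lists were close to each other. The intervals cover counting alone and all regions share the same KO libraries, so the differences between classes were not tested. These 3 h lists were outside the choice in controls and in KO alike.

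**Figure D4:**
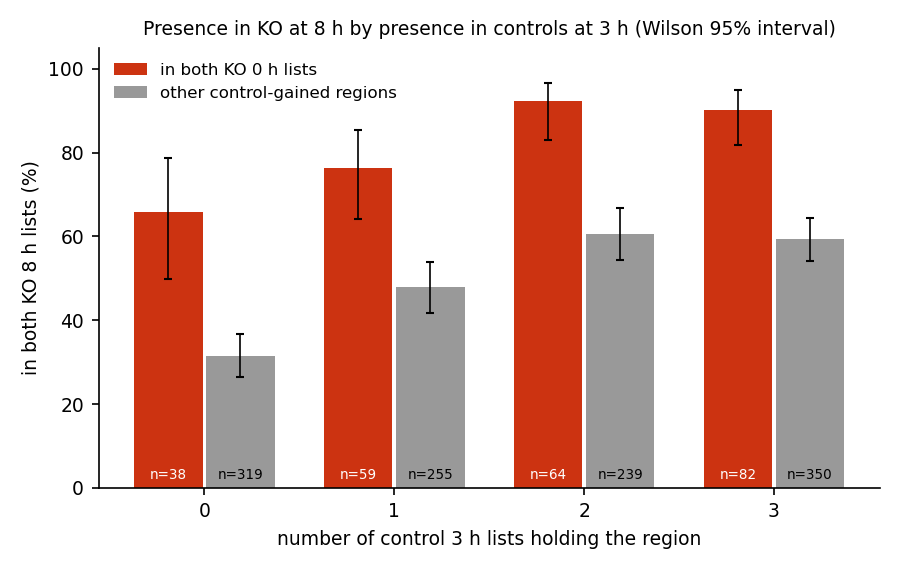
Share of regions in both KO 8 h lists (vertical axis, percent) by the number of control 3 h lists that held the region (horizontal axis), for the 243 regions and the 1163 other control-gained regions. Error bars are Wilson 95% intervals, which cover counting alone; the shares of the 243 regions go from 65.8% with 0 lists to 90.2% with 3.

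At 8 h the regions ranked stronger in KO than in controls more often than weaker. For 101 of the 243 (41.6%) both KO 8 h ranks were stronger than all 3 control 8 h ranks, for 44 (18.1%) both were weaker, and the rest overlapped. Over all 13424 regions in all 3 control 8 h lists that the KO lists also held, 20.9% were stronger and 36.4% weaker in KO. Among the 1142 other control-gained regions that the KO lists held, 14.3% were stronger and 58.5% weaker. The control 8 h ranks were limited to the cut by the rule and the KO 8 h ranks were not. By definition the 243 were in both KO 0 h lists and the other control-gained regions were not. Across the 243, KO ranks at 0 h and 8 h had a Spearman correlation of 0.40, so this contrast is not independent of the choice.

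Densities of single regions are set side by side below for all libraries, with a scaling between libraries that the sources do not give. Ranks are added for some regions, and can order the libraries differently there and elsewhere. The strongest region stood apart from the rest. chr11:3101918-3102798 had a mean rank of 442 over the 5 lists that chose it. Its highest density was 100.9 and 122.9 in KO at 0 h, then 80.9 and 96.2 at 3 h and finally 81.8 and 89.7 at 8 h. In WT it was not listed at 0 h, was listed at 3 h in replicate 2 alone with 30.6, and reached 127.8 and 88.9 at 8 h. In the littermate it was not listed at 0 h or 3 h and had 57.6 at 8 h. KO density was high at every time, and the control libraries overlapped with it at 8 h alone. Ranks at 8 h were 904 and 684 in KO, 143 and 300 in WT and 1370 in the littermate. Another of the 243 on the same chromosome, chr11:3165924-3166972, was a region which no control list at 0 h or 3 h held, with 26.7 and 27.8 in KO at 0 h, 26.2 and 25.1 at 8 h, and 35.1, 25.3 and 17.3 in controls at 8 h. Repeats and copy number at these positions were not analysed here.

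In the next 7 regions by mean rank, KO density was higher at 8 h than at 0 h in all but one. That KO stood above the controls at 0 h follows from the rule in every one of the 243. chr10:120897398-120899368 had 4.14 in the littermate at 0 h and was in neither WT list, while KO had 31.5 and 35.9. At 8 h it had 46.8 and 45.1 in WT, 43.0 in the littermate and 58.0 and 58.1 in KO, so KO was above all controls at 8 h. Its 8 h ranks were 2146 and 2106 in KO and 2561 to 3772 in controls. chr6:121140977-121142328 went furthest by 3 h in KO, from 28.0 and 25.3 before LPS to 70.0 and 68.1 at 3 h, and had 64.5 and 70.7 at 8 h. The controls had 10.5, 29.4 and 14 there at 3 h and 46.8, 56.6 and 57.0 at 8 h, so that every KO density at 3 h was above every control density at 3 h and 8 h. By rank the libraries overlapped at 3 h, since WT replicate 2 had rank 885 there and KO had 725 and 892. They overlapped at 8 h too, with ranks of 1664 and 1298 in KO and 1398 to 3788 in controls.

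chr10:79456815-79458061 went from 28.3 and 25.3 in KO before LPS to 49.1 in both libraries at 8 h. WT had 47.8 and 53.8 and the littermate 51.0 at 8 h, a range that held the KO values. chr1:182357342-182359489 was the strongest of the 243 in the littermate at 8 h, with rank 792 and 68.6, and WT had 61.2 and 55.9. KO had 18.8 and 24.3 there before LPS, then 36.4 and 41.1 at 3 h and finally 57.8 and 58.8, so the genotypes overlapped at 8 h. By rank they overlapped too, in another order, with 2183 and 2060 in KO and 2232 and 1454 in WT. chr14:103410772-103413537 and chr16:4893517-4895199 had 20.1 to 24.6 in KO at 0 h and 54.1 to 59.8 at 8 h. In both, all 3 control lists held the region at 3 h with 11.3 to 21.4, below every KO density at that time. By rank the order at 3 h was mixed. The first of them had rank 1182 in the littermate against 2776 and 2921 in KO, and the second had 3431 at best in controls against 2104 and 2639 in KO. At 8 h the first had rank 1593 in the littermate, stronger than the 2011 and 1995 of KO, although its KO densities were above all controls.

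The exception, chr5:130089313-130091565, had its highest KO densities before LPS. They were 35.6 and 30.7 at 0 h, then 33.6 and 29.6 at 3 h and finally 29.6 and 26.6 at 8 h. Controls had 27.8 and 32.6 in WT and 35.3 in the littermate at 8 h, after 5.27 in the littermate at 0 h. Its KO rank went from 3991 and 5356 at 0 h to 8504 and 10294 at 8 h, where controls had 4682 to 8181.

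**Figure D5:**
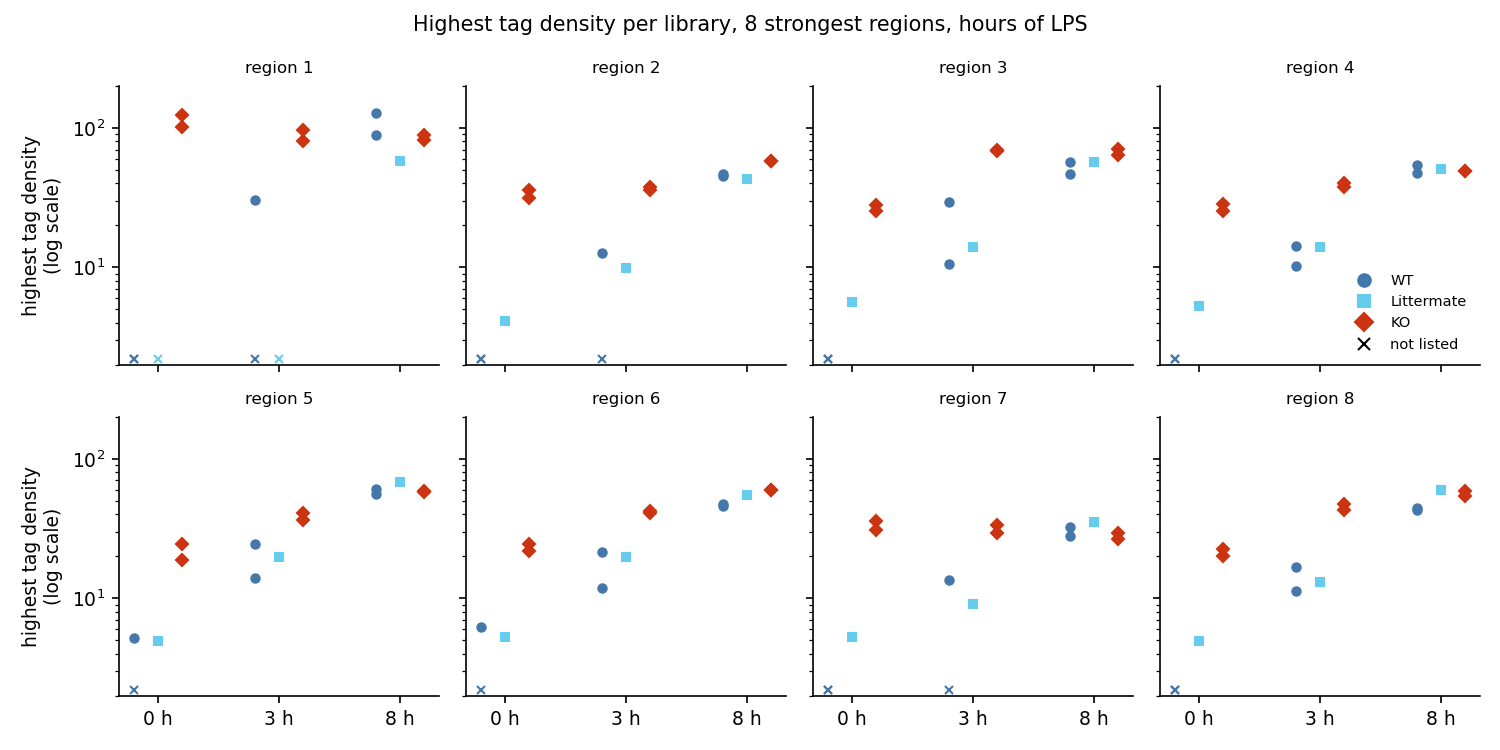
Highest tag density (vertical axis, log scale) in each library by hours of LPS for the 8 strongest regions, numbered in the order of the text's ranking by mean rank: chromosome 11, chromosome 10 (at 120897398), chromosome 6, chromosome 10 (at 79456815), chromosome 1, chromosome 14, chromosome 5 and chromosome 16. Crosses mark libraries whose list does not hold the region. The higher KO points at 0 h follow from the rule. At 8 h both KO points lie above all control points in regions 2, 3 and 6 and overlap with them in the others. By rank, KO and controls overlap at 8 h in regions 3 and 6, and both KO libraries are weaker than all controls in region 7.

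The 5 regions that ranked strongest in KO at 0 h among the 21 missing from both KO 8 h lists are named here. They were chr10:80747961-80749186, chr15:5092852-5094787, chr10:80032150-80033251, chr5:77693663-77696808 and chr10:76984620-76986707. The first had 20.4 and 22.7 in KO at 0 h, then 20.4 and 14.1 at 3 h and finally 14.8 and 15.4 at 8 h. Its control 8 h densities were 16.1, 19.1 and 15.3, a range that overlapped with KO at 8 h, although KO rank had gone from 10787 and 9082 to 21984 and 21226. Mean KO 8 h ranks of the 5 lay between 19242 and 22232, outside the cut, and the deposited lists still held them.

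Of the 41 regions that no control 0 h list held as deposited, the 5 strongest in KO at 0 h were the 2 on chromosome 11 given above and 3 others. chr10:81014288-81014867 went from 27.7 and 31.1 in KO before LPS to 39.3 and 39.1 at 8 h, above the 14.7, 20.1 and 23.3 of the controls at 8 h. chr2:167510525-167511308 had 25.1 and 29.1 in KO at 0 h, then 26.0 and 25 at 3 h and finally 30.7 and 36.3 at 8 h, and controls had 22.3 to 26.7 at 8 h. Its KO ranks hardly moved, from 7650 and 5908 at 0 h to 7953 and 5878 at 8 h. WT replicate 2 lay between the latter with rank 7516 at 8 h. chr15:76076642-76078452 had 26.4 and 25.9 in KO before LPS and 31.5 and 27.0 at 8 h, and was in all 3 control lists at 3 h. By rank it weakened in KO, from 7041 and 7295 at 0 h to 7668 and 10100 at 8 h. Controls had densities of 29.1, 30.5 and 23.0 at 8 h, which overlapped with KO.

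The 5 largest climbs in KO took regions from the lower part of the 0 h list to its upper part. chr13:55611402-55613266 had 20.1 and 18.6 in KO at 0 h, then 66.6 and 71.2 at 3 h and finally 91.8 and 92.7 at 8 h, moving from ranks of 10983 and 12265 to 646 and 620. Controls at 8 h had 16.1 and 16.0 in WT and 25.6 in the littermate, so the KO values at 3 h and 8 h were all above the controls. chr4:33367728-33370542 went from 15.6 and 16.3 to 60.8 and 62.9 in KO, against 14.4, 21.9 and 22.0 in controls at 8 h. chr3:148832520-148836188 went from 19.4 and 17.0 to 62.8 and 71.4, against 31.8, 28.1 and 43.0. chr2:102702380-102704426 had 15.6 and 15.4 in KO at 0 h, then 20.7 and 22.4 at 3 h and finally 53.6 and 50.3 at 8 h. chr15:73317300-73318907 had 15.9 and 19.8, then 29.1 and 22.7, then 63.9 and 54.1. In all 5, both KO libraries at 8 h were above all 3 control libraries at 8 h, by density and by rank. These were chosen for their climb, so their size is a description.

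The cut ran through a dense part of the lists. The worst rank of a region over the 5 lists that chose it had a median of 14955, and 33 of the 243 lay within the last 500 ranks before the cut. The 3 nearest inside were chr8:108545890-108547085 (rank 17212 in WT replicate 1 at 8 h), chr7:16881799-16882859 (17206 in KO replicate 2 at 0 h) and chr1:174458516-174459549 (17203 in KO replicate 1 at 0 h). Another 261 regions absent from the control 0 h lists missed the rule by 1 list. The nearest of them were chr2:167640323-167641393 (17248 in KO replicate 1 at 0 h), chr6:113612563-113614409 (17295 in KO replicate 2 at 0 h) and chr4:155601632-155603725 (17309 in WT replicate 1 at 8 h). The number of regions that met the rule was 97 with lists of 8618 hotspots and 6909 with the lists as deposited. With 1 control series left out, it was higher: 428 without WT replicate 1, 480 without WT replicate 2 and 515 without the littermate. Ranking hotspots by the authors' Z-score gave 250 regions, of which 89 of the 243 were part (36.6%), so the number hardly moved under that choice while most of the regions were others.

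The regions were spread over all 19 autosomes. Chromosome 17 held 22 of them (9.05%, with 4.83% of all regions), and chromosomes 2 and 10 held 21 each (8.64%, with 8.45% and 5.72%). Chromosome 7 held 6 (2.47%, with 6.68%) and chromosome 16 held 5 (2.06%, with 3.75%). Few lay together, since 18 of the 243 had another within 50000 bp.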

How the data were processed

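DNase-seq hotspot lists of 15 libraries were used, 1 list per library; groups are genotype and hours of LPS from the sample titles. Per the labels, nuclei were digested with DNase I and size-selected fragments were sequenced as single ends. CASAVA and build mm9 come from the submitters' processing notes. Which aligner, hotspot caller, threshold and scaling the authors applied is not given in the sources used here. The authors gave every hotspot a tag density signal (highest and mean), a score (the Z-score) and a p-value before deposit, per the file headers. Here the Z-score served in an alternative and the p-value was not used. The lists give no read counts and depth is unknown.

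Lists were ordered by highest density (ties by mean density, then position) and cut to 17237 hotspots before chromosomes 1 to 19 were kept. The 3 h lists were cut alike, except WT replicate 1 (15659 hotspots), and entered neither the choice nor the merging. Presence needed 1 bp of a region covered; its rank and density are those of its strongest hotspot in the whole list. Shares have Wilson 95% intervals. Regions were named by this rule: the 8 with the lowest mean rank over the choosing lists; the 5 strongest in KO at 0 h among those in neither KO 8 h list, and among those in no deposited control 0 h list; the 5 with the largest climb in KO; and the nearest to the cut. The members, lists and comparisons were chosen with earlier results of these data known. Motifs, sequences, gene lists and cell type markers were not analysed here, as no mm9 genome or annotation was used. The choice of regions was tested on simulated lists with planted members, where it lost members, and at the higher rate took in a few false ones, once lists missed hotspots at random. Alternatives covered ranking, list length, presence, joining of hotspots, chromosomes, covered bases and leaving out each series. Work was done in Python 3.11.15 with numpy 2.4.6, pandas 2.3.3, scipy 1.17.1 and matplotlib 3.10.9.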

Additional observations from a re-analysis of the deposited data

Results flagged for a closer look

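In 21 of the 243 regions presence in the shortened lists went opposite ways in the genotypes between 0 h and 8 h. The region was in both KO lists at 0 h and in neither at 8 h, while it entered all 3 control lists. Density did not fall in all of these: chr4:43511295-43513050 had 14.6 and 14.7 in KO at 0 h and 17.0 and 15.2 at 8 h. In 57 regions both KO 8 h ranks were weaker than both KO 0 h ranks, while all 3 control series gained the region. Both were less frequent than among all regions in both KO 0 h lists: 8.64% against 12.2% in neither KO 8 h list, and 23.5% against 49.1% weaker at 8 h. The base is not alike, since the median KO rank at 0 h was 12248 in the 243 and 7736 in the others. The density at the cut was higher in the KO 8 h lists (18.1 and 18.5) than in the KO 0 h lists (14.3 and 14.1), and the deposited KO 8 h lists held all 243 regions. The direction in controls is fixed by the rule, and the difference between genotypes was not tested.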

How the results depend on the processing

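The count of 243 moved most with equal covered bases, and also with list length and the definition of presence. It was 97 with lists of 8618 hotspots, 6909 in the lists as deposited, 3366 when 50% of a region had to be covered, 1269 with single hotspots of 50% reciprocal overlap and 1 with equal covered bases (chosen after seeing the data). Leaving out one series gave 297 to 515. The share in both KO 8 h lists was 89.2% by Z-score, 98.4% as deposited, 92.6% with 50% covered and 100% with equal covered bases (of 1 region), and 76.1% to 85.8% with one series left out. In both KO 3 h lists the shares under the same settings were 91.2%, 96.5%, 93.8% and 100%, and 82.7% to 88.9%. In all 3 control 3 h lists they were 40.8%, 3.20%, 1.78% and 0%, with 9.22% for single hotspots, and 32.6% to 47.0%. Adding X and Y (244 regions) or taking chromosomes 1 to 19 before the cut (252, chosen after seeing the data) moved no share beyond the interval of the main value. Of the 243 regions, 10 also met the rule with 8618 hotspots, 41 as deposited, 156 with 50% covered and 201 with single hotspots; the cause of these moves was not tested. A presence call at 3 h in WT replicate 1 is limited by its list of 15659 hotspots. No paired analysis was possible because the results come from no test, so there is no fit to which a replicate block could be added. Within KO replicate 1 taken alone, 157 of the 243 regions ranked stronger at 8 h than at 0 h, and within replicate 2, 165.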
